A study of Macaca mulatta with 10 samples.

Results

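Solute carriers are membrane proteins that move amino acids, sugars, ions, metals, vitamins, nucleotides and other small molecules across the plasma membrane and the membranes of organelles. Most work by coupling the transported substrate to the gradient of sodium or protons or by exchanging it for another solute, and family numbers mark relatedness of sequence rather than a shared substrate. In liver they feed amino acids to the synthesis of urea, glucose and plasma proteins, supply vitamins and metals, and load the Golgi with nucleotide sugars and zinc. Described here are the genes whose symbol begins with SLC and a number, leaving out the SLC25 and SLC22 families and 10 single genes (SLC13A5, SLC10A1, SLC27A5, SLC37A4, SLC39A14, SLC40A1, SLC7A11, SLC2A1, SLC2A2 and SLC47A1). They number 225 of the 14133 genes named by a probe set with 1 symbol, on 372 of the array's 52865 probe sets. The rule uses the symbol, these names and the brightness of a probe set, but it was set with earlier results of these data known.

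Livers came from 10 rhesus macaques (Macaca mulatta) with 1 array per animal, 5 brain-dead donors against 5 living control donors. Brain death was brought about by inflating a balloon catheter outside the dura and lasted 6 h (sample labels) or 5 h (series text). Blood pressure was held with intravenous fluid and with vasopressin, dopamine or both. Controls were anaesthetised and ventilated for 1 h before recovery, so that time under ventilation, fluid and drugs cannot be told apart from brain death. The control animals were 3 females and 2 males aged 4 to 20 years, and the brain-dead animals 2 females and 3 males aged 7 to 18 years, 1 of unstated age. Nothing in the labels says that animals of both groups with the same number share anything. Livers were flushed in place with cold-storage preservation fluid (UW solution) at recovery. Over all probe sets tested, control animal 4 lay nearest of the controls to the brain-dead arrays on the first principal component, and both animals numbered 1 stood apart on the second.

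A probe set was tested when its signal lay above the array median on at least 5 of the 10 arrays. This kept 225 of the 372 probe sets and 143 of the 225 genes, while 82 genes had no probe set past that level. Of the 143, 101 lay above the median on all 10 arrays, and none was kept through the arrays of 1 group alone. The 11 probe sets kept at exactly 5 arrays had group means between 152 and 365, and the 10 left out at 4 arrays had group means between 52.5 and 612. Array medians ran from 175 to 227. The members include 3 tested genes that are named after a carrier but encode none (SLC2A4RG, SLC7A6OS and SLC67A1-AS), which leaves 140 carriers. Each gene stands on its probe set of highest mean signal. A gene is called changed, risen or fallen when its Benjamini-Hochberg adjusted p over all probe sets tested was under 0.05 in limma.

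The liver label was checked on hepatocyte markers. The 5 measured of 8 (APOA1, APOB, FGB, SERPINA1 and ARG1) summed to 356207 to 462941 in controls and 325004 to 380859 in brain-dead animals, and none of them changed (0 higher and 1 lower at an unadjusted p under 0.05, limma). Of 7 neutrophil markers 3 were tested and 2 rose, S100A8 by 3.85 ± 0.74 and S100A9 by 3.54 ± 0.63 on the log2 scale (adjusted p = 0.0128 and 0.00911, limma with Benjamini-Hochberg), while CSF3R did not pass and MPO and S100A12 lay below the level tested. The summed signal of the 5 neutrophil markers on the array ran from 604 to 5404 in controls and was 7514, 23387, 31318, 16498 and 56685 in brain-dead animals 1 to 5. Most of that sum was S100A8 and S100A9, with brain-dead means of 12411 and 13929, beside 406 for CSF3R. The sum therefore follows those 2 genes more than the other markers. None of the 6 macrophage, 5 endothelial, 3 stellate, 2 cholangiocyte, 2 erythroid and 1 lymphocyte markers tested changed (limma, Benjamini-Hochberg). At an unadjusted p under 0.05, 2 endothelial markers were lower, PECAM1 and VWF, and 0 of the others differed. Summed endothelial signal was 13653 to 25551 in controls and 10765 to 19401 in brain-dead animals. In whole liver, fewer cells of a type and less RNA per cell cannot be told apart.

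Of the 143 genes 4 rose and 8 fell, against 2.9% and 3.87% of 9835 genes tested in the same fit. The 12 make up 8.39% of the 143, against 6.77% of all genes, a share near the background. The 4 that rose were SLC43A3, SLC6A8, SLC5A6 and SLC30A7, which carry nucleobases, creatine, vitamins and zinc. Those that fell were SLC13A1, SLC6A12, SLC46A3, SLC17A4, SLC7A9, SLC23A3 and SLC46A1, carriers of sulfate, betaine, organic anions, cystine and folate or their relatives, and the regulator SLC2A4RG. Fold changes of the 12 ran from 2.52 to 6.18, and 5.53% of all genes both passed and moved at least 2-fold. The other 131 did not pass, 12 of them with an adjusted p under 0.1 (limma, Benjamini-Hochberg). A change under 1.5-fold in either direction was fitted for 90 of the 143 genes (62.9%, against 72.2% of all genes). A change of at least 2-fold was fitted for 22 (15.4%, against 9.72%), of which 10 did not pass. The median log2 change was -0.074, with quartiles of -0.53 and 0.28, beside -0.007 over all genes tested, and 80 of 143 had a change below 0 (55.9%, against 50.5% of all genes). At an unadjusted p under 0.05, 14 genes were higher and 27 lower, where the same rule took 11.9% and 13.2% of all genes.

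**Figure D1:**
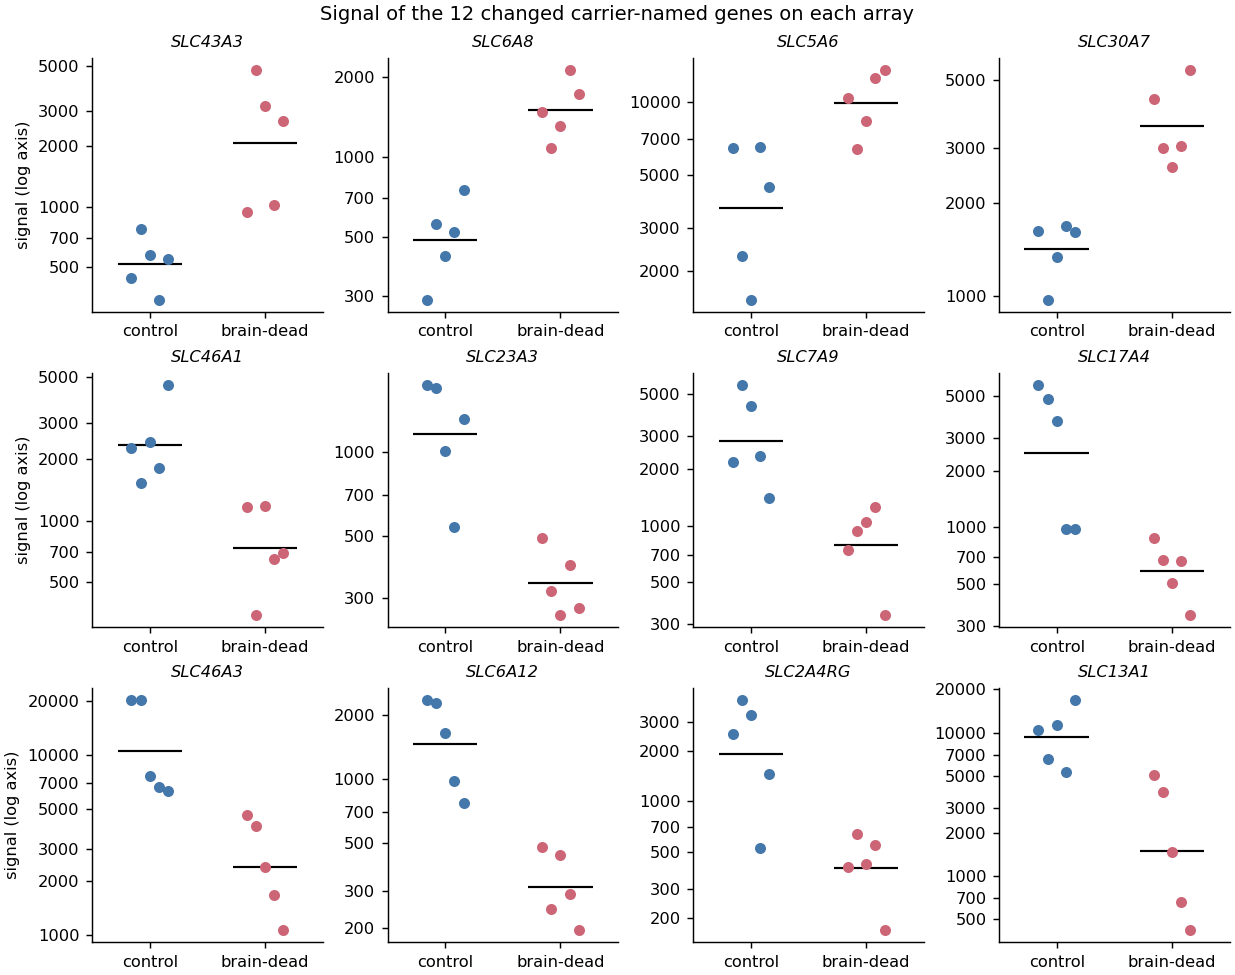
Signal of each of the 12 changed genes on each array (log axis, arbitrary units after the authors' scaling), with control animals in blue and brain-dead animals in red, each group in order of animal number, and the mean of the log values as a bar. Groups are apart in 10 genes, and overlap in SLC5A6 (6509 in the highest control, 6373 in the lowest brain-dead animal) and in SLC2A4RG (525 and 641).

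Groups lay apart on every array for 14 of the 143 genes, 3 higher and 11 lower (9.79%, against 7.8% of all genes, 3.65% higher and 4.15% lower). Of these 10 also passed the test. The other 4 were all lower: SLC4A7, a sodium-bicarbonate cotransporter (-0.67 ± 0.19), SLC20A2, a phosphate transporter (-0.84 ± 0.26), SLC38A5, a glutamine transporter (-0.81 ± 0.27), and SLC35D1, a nucleotide sugar transporter of the endoplasmic reticulum (-0.48 ± 0.21). Their adjusted p-values were 0.0553, 0.0705, 0.0881 and 0.197 (limma, Benjamini-Hochberg). Errors of a log2 change are standard errors of limma over 5 animals per group throughout. SLC4A7, SLC38A5 and SLC35D1 are named here because of this count, after their values were seen. A dimmer SLC4A7 probe set went the other way, at 0.92 ± 0.32, with a control mean of 227 against 66754 on the brightest.

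Amino acid, amine and peptide carriers were the largest class, with 40 genes tested. Of these 2 rose, 2 fell and 36 did not pass (10% passing, against 6.77% of all genes), with a median log2 change of 0.013. SLC6A8 imports creatine with sodium and chloride. SLC6A8 signals were 289, 560, 425, 521 and 755 in control animals 1 to 5 and 1484, 1081, 1310, 2136 and 1724 in brain-dead animals 1 to 5. Every brain-dead liver lay above every control. The log2 change was 1.63 ± 0.27, or 3.1-fold (adjusted p = 0.00697, limma with Benjamini-Hochberg). Its only tested probe set has the name suffix of sets that may bind several transcripts. SLC6A12, a relative in the same family, takes up betaine and GABA with sodium and chloride. SLC6A12 had control signals of 2369, 2275, 1661, 984 and 776 and brain-dead signals of 479, 247, 443, 290 and 195. No brain-dead value reached the lowest control. It fell by 2.23 ± 0.35 on the log2 scale (adjusted p = 0.00524, limma with Benjamini-Hochberg), the smallest p of the 143 genes. Both calls stood under every alternative run, apart from the filter at the 75th percentile, which leaves SLC6A12 untested (adjusted p over the alternatives 0.00452 to 0.027 for SLC6A8 and 0.00313 to 0.0182 for SLC6A12, limma, Benjamini-Hochberg).

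SLC43A3 belongs by family to the amino acid carriers but is known as a carrier of purine nucleobases. Its signals were 443, 778, 576, 343 and 548 in controls and 948, 4823, 3187, 1023 and 2674 in brain-dead animals. The groups did not touch, although brain-dead animals 1 and 4 sat close to the highest control. The rise was 2.01 ± 0.42, or 4.03-fold (adjusted p = 0.0184, limma with Benjamini-Hochberg). A further probe set, with the suffix of sets that may bind several transcripts, rose by 2.69 ± 0.60 (adjusted p = 0.0222, limma with Benjamini-Hochberg). The call of the gene ended with sex and age as covariates (adjusted p = 0.0513, and 0.00523 to 0.0513 across alternatives, limma with Benjamini-Hochberg). SLC43A1, an amino acid carrier that lies 2 genes away in the rhesus assembly T2T-MMU8v2.0, had a change of 0.30 ± 0.26, and SLC43A2 one of 0.76 ± 0.33, neither past the threshold. Brain-dead animal 1, lowest of its group in SLC43A3, was also lowest in the summed neutrophil markers (7514), mostly S100A8 and S100A9. At the upper end the 2 parted. Brain-dead animal 2 was highest in SLC43A3 (4823) with a sum of 23387, and animal 5 was highest in the sum (56685) with 2674 in SLC43A3. The part of these markers in the SLC43A3 result was not tested.

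SLC7A9 is the transport subunit of the exchanger for cystine and basic amino acids, which reaches the membrane paired with SLC3A1. The control values of SLC7A9 were 2179, 5639, 4330, 2358 and 1408, and the brain-dead values 748, 940, 1050, 1262 and 334. Brain-dead animal 5 was the lowest and the groups lay 1.11-fold apart at their nearest. SLC7A9 fell by 1.83 ± 0.41 on the log2 scale (adjusted p = 0.0236, limma with Benjamini-Hochberg), whereas its partner SLC3A1 had a change of 0.01 ± 0.39. The call ended without control animal 2 or 3, without brain-dead animal 5 and without both animals numbered 1 (adjusted p = 0.0607, 0.0601, 0.052 and 0.0687, and 0.00573 to 0.0687 across alternatives, limma with Benjamini-Hochberg).

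Neither SLC38A3 nor SLC38A4 passed. SLC38A3, which moves glutamine with sodium against protons, had a mean signal of 3938 ± 2301 in controls and 1604 ± 566 in brain-dead animals (SD, n = 5), a log2 change of -1.23 ± 0.38 (95% interval -2.06 to -0.40). The groups overlapped through brain-dead animal 1 (2191) and control animal 5 (2108). SLC38A4 had a change of -0.70 ± 0.26 on its brightest probe set and of -0.48, 0.08 and 0.10 on the others. Their adjusted p-values were 0.0738 and 0.131 (limma, Benjamini-Hochberg). SLC66A1, which exports basic amino acids from lysosomes, had a change of -0.95 ± 0.29, and its other probe set one of 0.43. The basic amino acid carrier SLC7A2 had a change of 0.44 ± 0.31 (95% interval -0.24 to 1.11), with all 5 of its probe sets between 0.07 and 0.66. SLC1A5, a neutral amino acid exchanger, and SLC7A5, an exchanger of large neutral amino acids, had 95% intervals of -0.42 to 2.12 and -0.81 to 1.61. Of 24 carriers of textbook liver function 16 were tested, 7 had no probe set paired with their symbol and SLC19A2 lay below the level tested.

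In the vitamin and haem class 4 of 10 genes passed, 1 higher and 3 lower (limma, adjusted p under 0.05, 6.77% of all genes). The class was set by family, except that SLC5A6, the one higher, was placed there by its own substrate. Its tested relatives SLC5A1, SLC5A2 and SLC5A10 were counted with the sugar carriers. Of the 3 lower, SLC46A3 and SLC23A3 are placed there by family alone. SLC46A1 brings folate into cells with protons, and SLC46A3 is a member of that family in the lysosomal membrane. SLC46A3 gave signals of 20272, 20283, 7584, 6636 and 6324 in controls and 4636, 4020, 2393, 1652 and 1055 in brain-dead animals. Control animals 1 and 2 stood far above the other controls, and the groups lay apart by 1.36-fold even at their closest. The fall was -2.14 ± 0.46, or 4.42-fold (adjusted p = 0.0196, limma with Benjamini-Hochberg). It lost its call without control animal 2 (adjusted p = 0.0525, and 0.00158 to 0.0525 across alternatives, limma with Benjamini-Hochberg).

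SLC46A1 had signals of 2245, 1517, 2418, 1810 and 4595 in controls against 1160, 345, 1174, 646 and 691 in brain-dead animals. All brain-dead values lay below all controls. The change was -1.67 ± 0.37 (adjusted p = 0.0217, limma with Benjamini-Hochberg), and the call ended without brain-dead animal 5 (adjusted p = 0.052, and 0.0103 to 0.052 across alternatives, limma with Benjamini-Hochberg). A dimmer probe set of SLC46A1 had a change of 0.20 ± 0.70, with control animal 4 at 38.4 and the other controls between 542 and 1171. SLC13A2, its neighbour on the chromosome and a carrier of dicarboxylates, had a change of 0.18 ± 0.24.

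SLC23A3 is a member of the ascorbate carrier family without an established substrate. SLC23A3 signals were 1742, 1690, 1011, 538 and 1308 in controls and 491, 319, 260, 395 and 277 in brain-dead animals. Control animal 4 came nearest to the brain-dead livers, at 1.1-fold above the highest of them. SLC23A3 fell by 1.78 ± 0.32 on the log2 scale (adjusted p = 0.00924, and 0.00172 to 0.0302 across alternatives, limma with Benjamini-Hochberg). The ascorbate carrier SLC23A2 of the same family had a change of -0.04 ± 0.30.

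SLC5A6, the sodium-coupled carrier of biotin and pantothenate, was the vitamin carrier that rose. It had signals of 6461, 2295, 1505, 6509 and 4444 in controls and 10386, 6373, 8313, 12650 and 13644 in brain-dead animals. Brain-dead animal 2 lay just under control animals 1 and 4. The rise of 1.44 ± 0.40 was the weakest call of the 12 (adjusted p = 0.048, limma with Benjamini-Hochberg) and was lost under 13 of 26 alternatives (range 0.012 to 0.12). These included leaving out control animals 2, 3 or 5 (0.12, 0.0971 and 0.0652, limma, Benjamini-Hochberg adjusted p) or brain-dead animals 1, 3, 4 or 5 (0.0772, 0.0743, 0.104 and 0.118). They also included centring on the array median (0.0636), sex in the model (0.058), no filter (0.0737), eBayes without trend (0.0589), leaving out both animals numbered 1 (0.0738) and a threshold of 0.01. The thiamine carrier SLC19A3 had a change of -0.84 ± 0.33, the folate carrier SLC19A1 one of -0.02 ± 0.21 and the riboflavin carrier SLC52A3 one of -0.38 ± 0.30. None of these 3 passed (adjusted p = 0.142, 0.961 and 0.481, limma with Benjamini-Hochberg).

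**Figure D2:**
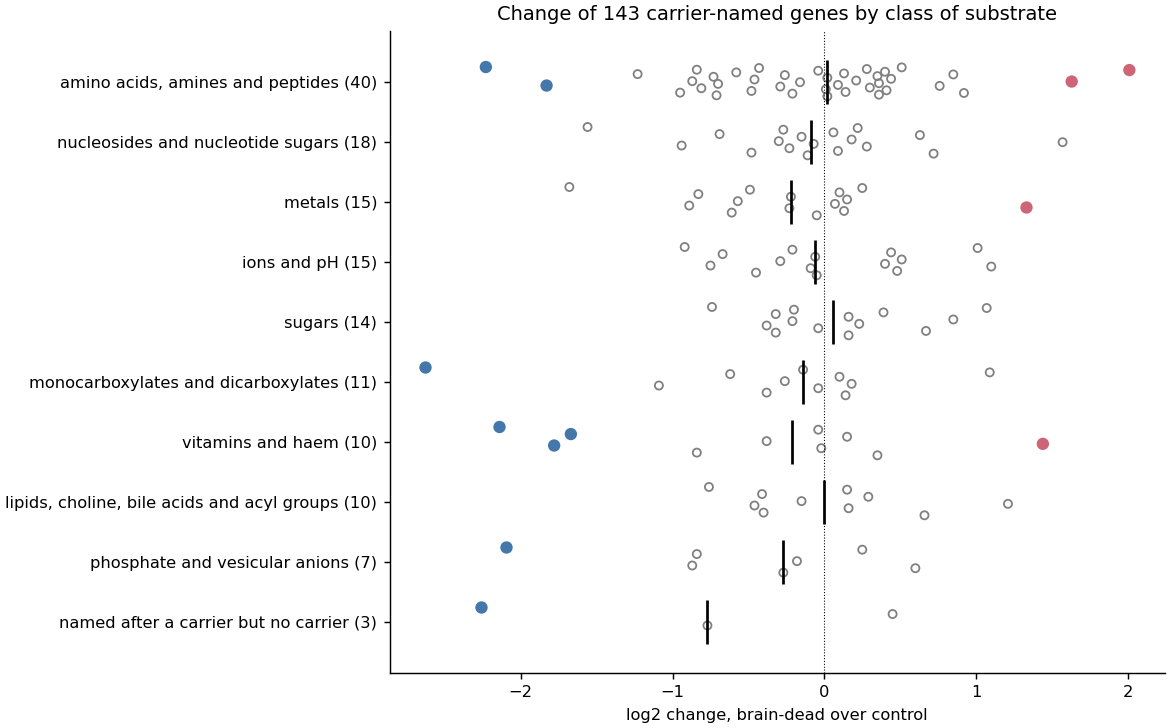
Log2 change of brain-dead over control for each of the 143 genes, grouped by class of substrate, with the number of genes in brackets. Classes follow the family, except for SLC5A6, placed by its own substrate, and the genes that encode no carrier. The class median is a vertical bar, and changed genes are filled (red higher, blue lower) and the others open. The 12 changed genes stand at 1.33 and above or -1.67 and below, and the class medians lie between -0.775 and 0.056.

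The carboxylate families SLC13 and SLC16 held the largest fall of the 143 genes. SLC13A1, which takes up sulfate with sodium, had signals of 10384, 6575, 11394, 5313 and 16959 in controls and 5030, 3828, 1469, 658 and 418 in brain-dead animals. The highest brain-dead liver came within 1.06-fold of the lowest control, while the lowest was 418. The log2 change was -2.63 ± 0.61, or 6.18-fold lower (adjusted p = 0.0259, limma with Benjamini-Hochberg). A further probe set of SLC13A1 fell by 2.99 ± 0.61 on the log2 scale (adjusted p = 0.0159, limma with Benjamini-Hochberg), with groups that overlapped through control animal 4. Between females the difference of mean log2 signals was -1.07 and between males -3.68, with no interaction of brain death with sex past the threshold (adjusted p = 1, limma with Benjamini-Hochberg). No probe set of any gene passed that interaction test. The call ended without control animals 1, 2, 3 or 5 (adjusted p = 0.0574, 0.0506, 0.0596 and 0.0523, limma with Benjamini-Hochberg) or brain-dead animals 3, 4 or 5 (0.0521, 0.0611 and 0.0556), and with sex and age as covariates (0.0577, and 0.0102 to 0.0611 across alternatives).

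Of the 9 genes tested of the monocarboxylate carrier family SLC16, not all of which carry monocarboxylates, none passed, against 6.77% of all genes. SLC16A1, the main carrier of lactate and ketone bodies, had mean signals of 9859 ± 4346 in controls and 10271 ± 3042 in brain-dead animals (SD, n = 5), a change of 0.14 ± 0.34 (95% interval -0.60 to 0.87). The aromatic amino acid carrier SLC16A10 had a change of 1.09 ± 0.45, its other probe set one of 1.12, and SLC16A9 one of -1.09 ± 0.43. Brain-dead animal 5 was the highest in SLC16A10 (9038) and the lowest in SLC16A9 (75.2).

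The organic anion carrier SLC17A4 was the member of the phosphate and vesicular anion class that fell, of 7 tested (14.3%, against 6.77% of all genes passing). SLC17A4 signals were 5744, 4822, 3683, 977 and 979 in controls and 882, 671, 506, 664 and 341 in brain-dead animals. The 3 control females were high, and the 2 control males lay only 1.11-fold above the highest brain-dead liver. The change was -2.10 ± 0.50 (adjusted p = 0.0282, limma with Benjamini-Hochberg). Among females the difference of mean log2 signals was -2.60 and among males -1.01, with an interaction that did not pass, as for every probe set tested (adjusted p = 1, limma with Benjamini-Hochberg). The call was lost without control animals 1, 2 or 3 (adjusted p = 0.0643, 0.0749 and 0.0683, limma with Benjamini-Hochberg), brain-dead animals 3, 4 or 5 (0.0582, 0.0534 and 0.0746) and both animals numbered 1 (0.0732, and 0.00945 to 0.0749 across alternatives). SLC17A1 and SLC17A3, urate carriers that lie beside SLC17A4 on the chromosome, had changes of -0.87 ± 0.37 and 0.25 ± 1.02. Phosphate carriers SLC20A1 and SLC20A2 had changes of 0.60 ± 0.30 and -0.84 ± 0.26 (adjusted p = 0.243 and 0.0705, limma with Benjamini-Hochberg).

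Metal carriers numbered 15, of which 1 rose (6.67%, against 6.77% of all genes passing). SLC30A7 moves zinc from the cytosol into the Golgi. SLC30A7 signals were 1618, 965, 1333, 1679 and 1603 in controls and 4337, 3020, 2604, 3064 and 5404 in brain-dead animals. The lowest brain-dead liver stood 1.55-fold above the highest control. The rise was 1.33 ± 0.25, or 2.52-fold (adjusted p = 0.0121, limma with Benjamini-Hochberg). A further probe set rose by 1.47 ± 0.25 and the last differed by 1.37 ± 0.40 without passing (adjusted p = 0.0603, limma with Benjamini-Hochberg). No array left out ended the call at the 0.05 threshold (range over its alternatives 0.00697 to 0.0401, limma, Benjamini-Hochberg adjusted p). The manganese exporter SLC30A10 differed by -1.68 ± 0.55 without passing, its mean signal being 827 ± 640 in controls and 251 ± 147 in brain-dead animals (SD, n = 5). Zinc importer SLC39A5 had a change of -0.89 ± 0.29, and SLC39A8, which imports manganese and zinc, one of -0.49 ± 0.29 (adjusted p = 0.0837 and 0.332, limma with Benjamini-Hochberg).

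None of the 18 carriers of nucleosides and nucleotide sugars passed on its brightest probe set (3 higher and 3 lower at an unadjusted p under 0.05, limma). The shares over all genes were 6.77% passing, and 11.9% higher and 13.2% lower unadjusted. SLC35E1, a carrier of that family without an established substrate, had signals of 3365, 621, 1303, 3161 and 2202 in controls and 7877, 2709, 4486, 5471 and 8468 in brain-dead animals. Only brain-dead animal 2 overlapped the controls. Its change of 1.57 ± 0.45 missed the threshold (adjusted p = 0.0565, limma with Benjamini-Hochberg), while a probe set with the suffix of sets that may bind several transcripts rose by 1.17 ± 0.30 (0.0373) and the other 2 had changes of 0.49 and 0.26. SLC35C1, which brings GDP-fucose into the Golgi, had a change of -1.56 ± 0.44 (adjusted p = 0.0547, limma with Benjamini-Hochberg). Control animal 4, at 279, lay among the brain-dead livers of SLC35C1 (187 to 502), and without it the change was -1.99 (adjusted p = 0.00582, limma with Benjamini-Hochberg). SLC35E3, another carrier of the family, had a change of -0.94 ± 0.36. The CMP-sialic acid carrier SLC35A1 had a change of -0.15 ± 0.20, and the nucleoside carrier SLC29A1 one of -0.69 ± 0.35.

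No gene passed among 15 carriers of ions and protons (1 higher and 2 lower at an unadjusted p under 0.05, limma), 14 carriers of sugars (1 and 1) and 10 of lipids, choline, bile acids and acyl groups (2 and 1). Over all genes 6.77% passed, and 11.9% were higher and 13.2% lower at that unadjusted p. In the ion class the potassium-chloride cotransporter SLC12A4 had a change of 1.10 ± 0.42, the sodium-proton exchanger SLC9A7 one of 1.01 ± 0.63 and the bicarbonate cotransporter SLC4A4 one of -0.29 ± 0.34. Both SLC12A4 and SLC9A7 lay above the array median on only 2 of 5 control arrays. Among sugar carriers SLC2A3, a high-affinity glucose carrier also found in leukocytes, had signals of 297 to 574 in controls and 476 to 1524 in brain-dead animals. Its change was 1.07 ± 0.31 (adjusted p = 0.0619, limma with Benjamini-Hochberg). The summed neutrophil markers, mostly S100A8 and S100A9, were higher in the brain-dead group, and their part in the SLC2A3 change was not tested. The other tested probe sets of SLC2A3 had changes of 0.95 ± 0.35 and 0.02 ± 0.30, neither past the threshold. SLC45A2, known from melanosomes, had a change of 0.85 ± 0.50. SLC27A2, which takes up and activates very long-chain fatty acids, had a change of -0.76 ± 0.27 from a mean of 28618 ± 10039 to 16597 ± 5049 (SD, n = 5). All 3 tested members of family SLC27 had changes below 0, from -0.76 to -0.41.

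The non-carrier SLC2A4RG, a DNA-binding regulator of the gene for an insulin-responsive glucose carrier, fell. SLC2A4RG signals were 2540, 4059, 3281, 525 and 1459 in controls and 407, 641, 422, 551 and 169 in brain-dead animals. Control animal 4 lay inside the brain-dead range. The change was -2.26 ± 0.51 (adjusted p = 0.0232, limma with Benjamini-Hochberg). It lost its call without control animals 1, 2 or 3 (adjusted p = 0.0567, 0.062 and 0.0586, limma with Benjamini-Hochberg), brain-dead animal 5 (0.0588) and both animals numbered 1 (0.088, and 0.00355 to 0.088 across alternatives). SLC7A6OS, encoded opposite an amino acid carrier gene, had a change of 0.45 ± 0.22, and the antisense transcript SLC67A1-AS one of -0.77 ± 0.38.

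**Figure D3:**
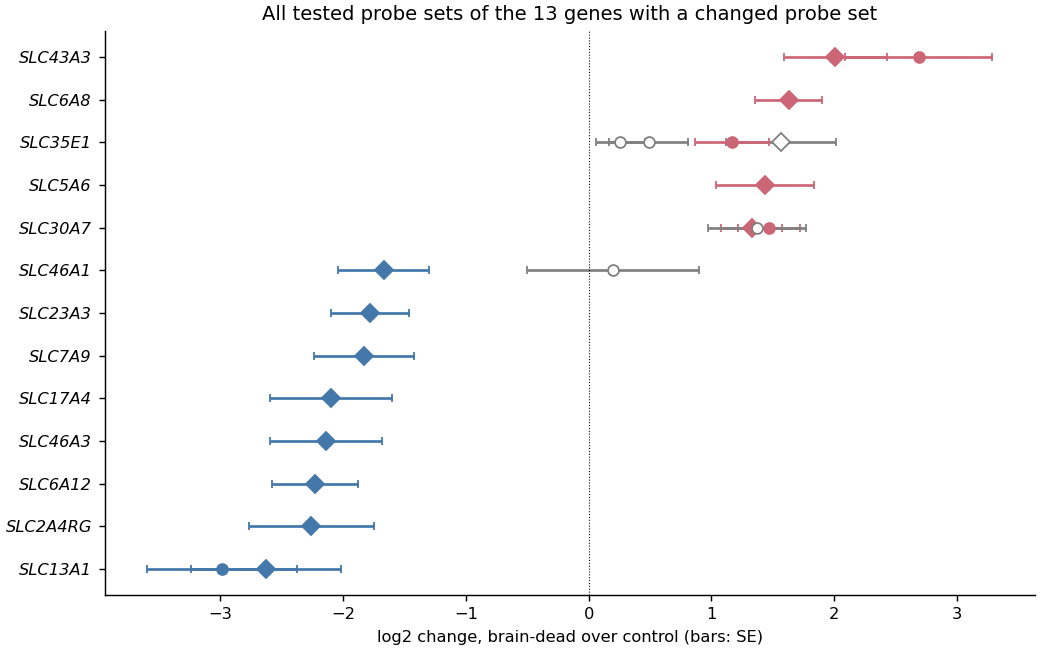
Log2 change with its standard error for every tested probe set of the 13 genes with at least 1 changed probe set, the brightest as a diamond and the others as circles, filled where the adjusted p was under 0.05. All probe sets of SLC43A3, SLC30A7, SLC35E1 and SLC13A1 lie on 1 side of 0, while SLC46A1 has a dimmer one at 0.20.

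Agreement between probe sets could be read for 50 genes with more than 1 probe set tested. In 30 of them all probe sets had a change of the same sign, in 20 they did not, and no gene had changed probe sets in both directions. Counted over probe sets, 7 rose and 9 fell of 225, against 2.72% and 3.39% of all probe sets tested (6.1% in either direction). Groups lay apart for 18 of the 225, against 6.93% of all probe sets. The widest disagreement was that of SLC44A2, a choline carrier-like protein, whose brightest probe set had a change of 1.21 ± 0.36 and the others -0.56 and -1.22, none of them past the threshold. Next came SLC46A1 with a range of 1.87, SLC4A7 (-0.67, -0.59 and 0.92) with 1.59 and the anion exchanger SLC4A2 (0.40 and -1.03) with 1.44. For such genes the direction depends on the probe set read. In SLC4A7 the probe sets at -0.67 and -0.59 had control means of 66754 and 58395, and the one at 0.92 had 227. Its probe sets below the level tested had means of 120 and 118 in controls and 233 and 195 in brain-dead animals.

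Animals differed in their place within a group. Among the 8 fallen genes brain-dead animal 5 had the lowest signal of its group in 6 and brain-dead animal 1 the highest in 5. Control animal 4 was the lowest control in 4 of the 8 and control animal 5 in 3. Over all 143 genes the median log2 difference from the control mean was 0.13, -0.04, 0.03, -0.22 and -0.20 in brain-dead animals 1 to 5 (SD 0.149). The number of changed genes fell to 6 with control animal 2 left out, to 7 with control animal 3 left out and to 6 with brain-dead animal 5 left out, was 8 without both animals numbered 1, and was 18 without control animal 4. The share of all probe sets passing moved in the same direction, from 6.1% to 2.48%, 2.76%, 2.55%, 2.53% and 8.59% in that order. Of 44 genes named by rule none had an interaction of brain death with sex past the threshold (adjusted p = 1 for all, limma with Benjamini-Hochberg), and 3 had an unadjusted p under 0.05, SLC13A1, SLC17A4 and SLC52A3. None of all 26653 probe sets tested passed either, with only 2 or 3 animals of each sex per group, so this is no trait of the genes described here.

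**Figure D4:**
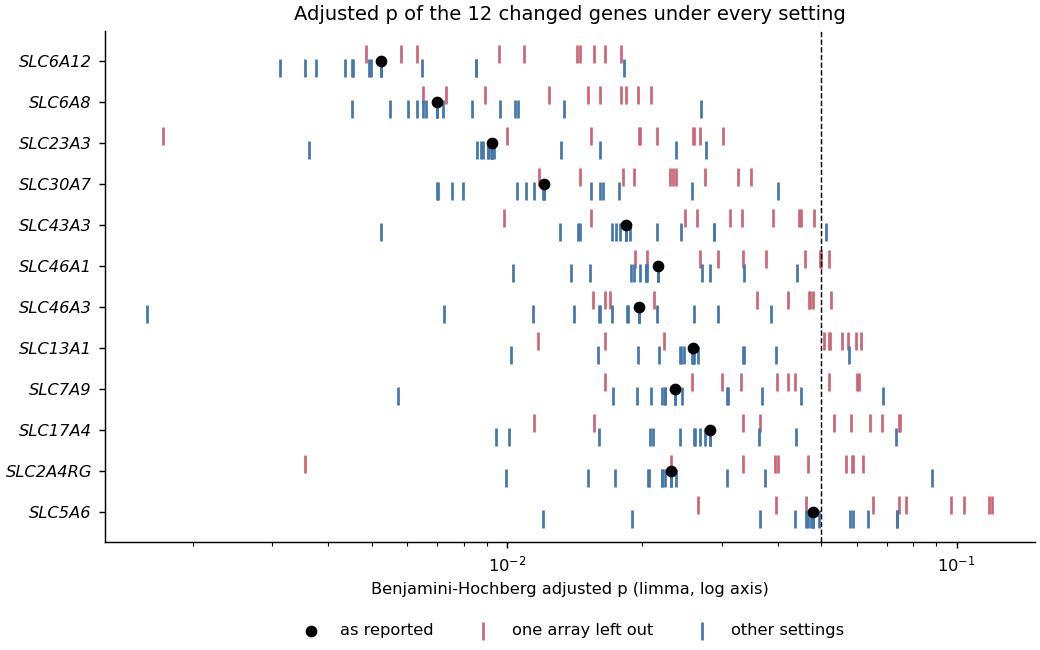
Adjusted p of the 12 changed genes (limma, Benjamini-Hochberg, log axis) as reported (black points), with each array left out in turn (red ticks) and under the other settings (blue ticks), with the threshold of 0.05 dashed. SLC6A12, SLC6A8, SLC23A3 and SLC30A7 stay left of the line throughout, and SLC5A6 crosses it most often.

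Genes that work with these carriers were read beside them. Of 30 partners listed 22 were tested, covering subunits and scaffolds, regulators of transport, metallothioneins and genes of amino acid sensing, and 0 passed (limma, Benjamini-Hochberg). At an unadjusted p under 0.05, 2 were higher and 2 lower, and the median log2 change was -0.15. Over all genes 6.77% passed, and 11.9% were higher and 13.2% lower unadjusted. PDZK1, a scaffold that holds several carriers at the membrane, had a change of -1.88 ± 0.53, and STK39, a kinase that controls chloride cotransporters, one of -1.25 ± 0.37 (adjusted p = 0.0529 and 0.0621, limma with Benjamini-Hochberg). The chaperone BSG of monocarboxylate carriers had a change of -0.04 ± 0.35, the sodium pump subunit ATP1B1 one of -0.64 ± 0.37, and ATF4, a transcription factor of the amino acid response, one of 0.67 ± 0.26. Metallothioneins MT2A, MT1E and MT1X had changes of -0.15 ± 0.14, -0.16 ± 0.19 and 0.72 ± 0.56.

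For comparison, the mitochondrial SLC25 carriers had 1 gene higher and 5 lower of 30 tested (20%), and the SLC22 carriers of organic ions 0 higher and 1 lower of 7 (14.3%). The share was 8.39% of the genes described here and 6.77% of all genes. Median log2 changes were -0.164 and -0.187, beside -0.074 for the genes described here. Of the 10 single genes left out by name 9 were tested, 2 higher and 1 lower (33.3%), with a median log2 change of -0.436. Whether these shares differ was not tested.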

How the data were processed

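Liver RNA of 10 macaques was hybridised to 1-colour arrays. The deposited values are signal intensity per probe set on a linear scale, made by the authors with MAS5 per the submitters' processing notes. All arrays have the same 2% trimmed mean of 1000, and the table holds no detection calls. Symbols came with the platform annotation, dated 2016, in which 24969 probe sets have 1 symbol, 361 several and 27535 none. All 225 member symbols equal those of the RefSeq gene table used for gene order, so they may have been updated after that date. The 99 array controls were left out. Log2 intensity (no pseudocount) was fitted with limma 3.58.1 in R 4.3.3 (lmFit, eBayes with trend, group only), and p-values were adjusted by Benjamini-Hochberg over the 26653 probe sets above the array median on at least 5 arrays, with a threshold of 0.05. With 5 arrays per group, their number limits the precision. Each p-value sets the group difference against the variance between arrays within the groups, which eBayes moderates over all probe sets tested. With 1 array per animal, spread between animals and spread between arrays cannot be told apart.

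Named are all genes past the threshold, the 2 largest other changes of each class and a list of textbook liver carriers. Family relatives, partners of a named carrier, genes named for apart-lying groups or discordant probe sets were added after their values were seen. The members and lists were chosen with earlier results of these data known. Alternatives changed normalization, filter, pseudocount, covariates, variance model, threshold, representative probe set and the arrays used. Gene order came from the RefSeq gene table of assembly T2T-MMU8v2.0, and no coordinates or sequences are printed. Figures were drawn with matplotlib 3.10.9.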

Additional observations from a re-analysis of the deposited data

Results flagged for a closer look

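Among the 88 groups of 5 arrays of the named genes, 4 (4.55%) held 1 array far from the rest by Dixon's criterion, where chance gives about 1 in 20. SLC1A5 signal was 43.1 in control animal 4 and 454 to 563 in the other controls. SLC29A1 signal was 1018 in control animal 4, and without that animal the change was -1.01 (limma, Benjamini-Hochberg adjusted p = 0.0359). SLC2A3 signal was 297 in control animal 2 and 504 to 574 in the other controls. SLC38A3 signal was 668 in brain-dead animal 5 and 1621 to 2191 in the other brain-dead animals.

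Of the 147 probe sets below the brightness tested, 3 had lower signal in brain-dead livers and 0 higher when no filter was set (limma, Benjamini-Hochberg). That is 2.04%, beside 0.368% of all 26113 probe sets below that brightness and 2% of all probe sets under this setting, and the difference between these shares was not tested. SLC5A9, a sugar carrier, had a log2 change of -2.26, from 118 ± 57.5 to 22.8 ± 4.54 (SD, n = 5; limma adjusted p = 0.0284). SLC4A10, a bicarbonate carrier, had a change of -2.72, from 116 ± 16.9 to 30.5 ± 42.9 (SD, n = 5; limma adjusted p = 0.048). SLC27A3, of the fatty acid carrier family, had a change of -2.79, from 378 ± 272 to 52.5 ± 33.6 (SD, n = 5; limma adjusted p = 0.0182).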

How the results depend on the processing

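Over 26 alternatives, 1046 of 1126 values of named genes kept their side of the threshold, 48 lost the call and 32 gained one. No called gene changed sign, while changes near 0 that did not pass crossed it in SLC16A1 (-0.06 to 0.51), SLC19A1 (-0.49 to 0.05) and SLC4A4 (-0.53 to 0.04). With the replicate number as a block 24 genes passed (9 higher, 15 lower) on 32 probe sets (14 and 18), all 12 included, as the share of all probe sets passing went from 6.1% to 11.3%. Deviations of same-numbered animals correlated at 0.38, 0.06, 0.13, 0.09 and 0.13, all positive. The numbers were not taken as pairs because the labels tie them to nothing shared by both groups. Whether same-numbered animals share anything was not tested. Array weights gave 19 genes, 7 of them higher, and 11 higher probe sets (8.98% of all probe sets passing). At an adjusted p under 0.01, 3 genes passed (1 higher, 2 lower), on 4 probe sets (2 and 2, with 0.957% of all). Without both animals numbered 1, 5 genes were lower. With 1 array left out, 6 to 18 genes passed (3 to 8 higher, 3 to 10 lower), on 8 to 24 probe sets (4 to 11 higher, 4 to 13 lower), and the median log2 change was -0.174 to -0.042. Under the other settings that median ran from -0.159 to 0.065. The causes were not tested. With sex and age in the model, the animal of unstated age was left out.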
